A study of Mus musculus with 8 samples.

Results

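The 10 genes described here encode transcription factors used in the differentiation of enteric neurons: Phox2a, Hand2, Etv1, Tbx3, Tbx2, Bnc2, Pbx3, Sox6, Meis2 and Satb1. They were taken by name from a table of 18561 genes, and all 10 were present. Gene expression had been measured in 8 libraries of cells sorted from the gastrointestinal tract of mouse embryos at embryonic day 14.5 with antibodies against CD271 and CD57, with about 200 cells in a tube. Of these libraries 5 were labelled Emb knockdown and 3 were labelled WT. The labels gave no strain, sex, litter, knockdown method or batch. Whether each library is a different animal is not said, and p-values therefore cover the variation among libraries only, part of which may be technical.

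Enteric neurons arise from neural crest cells that colonise the gut wall. Sox10-positive progenitors switch on proneural and homeodomain factors, and then factors that steer neurons toward transmitter identities. Several of these factors are not specific to neurons. Hand2, Tbx2, Tbx3, Bnc2 and Meis2 are also known from embryonic mesenchyme, Etv1 from interstitial cells of Cajal and Satb1 from lymphocytes.

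Several facts about the libraries stand before the results. Totals ran from 20116607 to 26959265 expected counts, and 3 counts, taken as the floor of detection, corresponded to 0.0966 to 0.155 CPM (counts scaled to a library of 1000000, with TMM factors of all 8 libraries). Floors cover counting error only. Emb itself went against the labels, since the libraries labelled knockdown 1 to 5 held 353, 349, 37.2, 21.4 and 21.7 CPM of it, against 16.9, 17.7 and 15.9 CPM in WT libraries 1 to 3. Directions are therefore differences between libraries by label. The libraries labelled knockdown 1 and 2 stood apart from the other 6. Their 16 leukocyte genes summed to 31023 and 26286 CPM, against a leukocyte sum of 1452 to 2612 CPM in those labelled knockdown 3 to 5 and of 458 to 704 CPM in WT. Their 12 pan-neuronal genes summed to 68.6 and 52.4 CPM, against a neuronal sum of 775 to 1533 CPM in those labelled knockdown 3 to 5 and of 1916 to 2371 CPM in WT. Summed mesenchyme genes were also lower in these 2 libraries, at 83.8 and 550 CPM. The mesenchyme sum was 6283 to 6734 CPM in those labelled knockdown 3 to 5 and 3357 to 4613 CPM in WT. Results are given with all 8 libraries and with the 6 that remain without the libraries labelled knockdown 1 and 2.

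**Figure D1:**
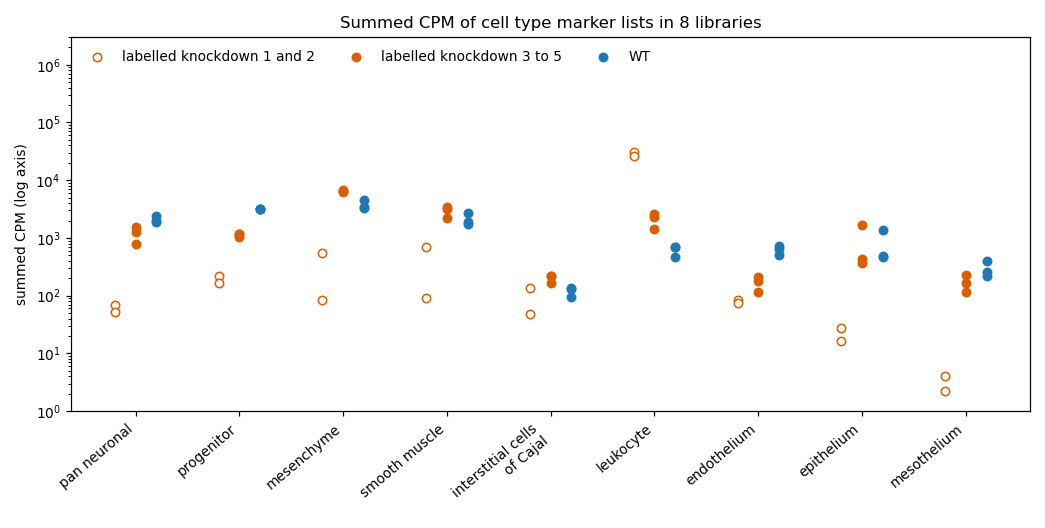
Summed CPM of marker genes for 9 cell types (log axis), 1 point per library, with the libraries labelled knockdown 1 and 2 as open circles, those labelled knockdown 3 to 5 as filled orange circles and WT as blue circles. The 2 open circles are far above the others for leukocytes and lowest for neurons, and the filled orange points are above WT for mesenchyme and below WT for progenitors.

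In the libraries labelled knockdown 1 and 2, 9 of the 10 factors were below all other libraries, a position shared by 31.8% of the 15411 genes tested. Satb1, a chromatin organiser with CUT domains and a homeodomain that is abundant in T lymphocytes, was the member that was not. Across the libraries labelled knockdown 1 to 5 it had 30.1, 29.8, 21.7, 31.8 and 45.9 CPM, and in WT 40.9, 26.8 and 28.7 CPM, with overlap of the groups. At the other end was Phox2a, a paired-like homeodomain factor of autonomic neurons, with 0.567 CPM in the library labelled knockdown 1 and 0.141 CPM in that labelled knockdown 2. The second of these values is 3 counts, the floor itself. Hand2, Tbx3, Tbx2, Bnc2 and Sox6 were between 0.942 and 4.02 CPM there, so their lowest level in the other 6 libraries was 11.9 to 19.9 times the higher of the 2. Etv1, Pbx3 and Meis2 kept 20.1 to 32.6, 9.98 to 17.3 and 9.58 to 21.8 CPM. In bulk samples of this kind, fewer cells of a type and less RNA per cell cannot be told apart.

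With all 8 libraries, none of the 10 factors passed an adjusted p of 0.05 in edgeR's quasi-likelihood test, and neither did any other gene (0% of 15411 tested, smallest adjusted p 0.117). At an unadjusted p under 0.05, 0 of the 10 factors and 18.6% of all genes passed. DESeq2's Wald test called 0 of the 10 (14.5% of all genes) and limma voom also 0 (24%). Tbx2 and Tbx3 were the members whose groups did not overlap, both lower in every library labelled knockdown, as were 11.9% of all genes. Tbx2 had a log2 fold change of -1.87 ± 1.06 (SE, edgeR adjusted p = 0.394) and Tbx3 of -1.63 ± 1.13 (adjusted p = 0.490). Permuting the labels exactly over all 56 splits gave a two-sided p of 0.0357 for each, the smallest possible and not adjusted. Either way round, the groups of 22.7% of all genes did not overlap.

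**Figure D2:**
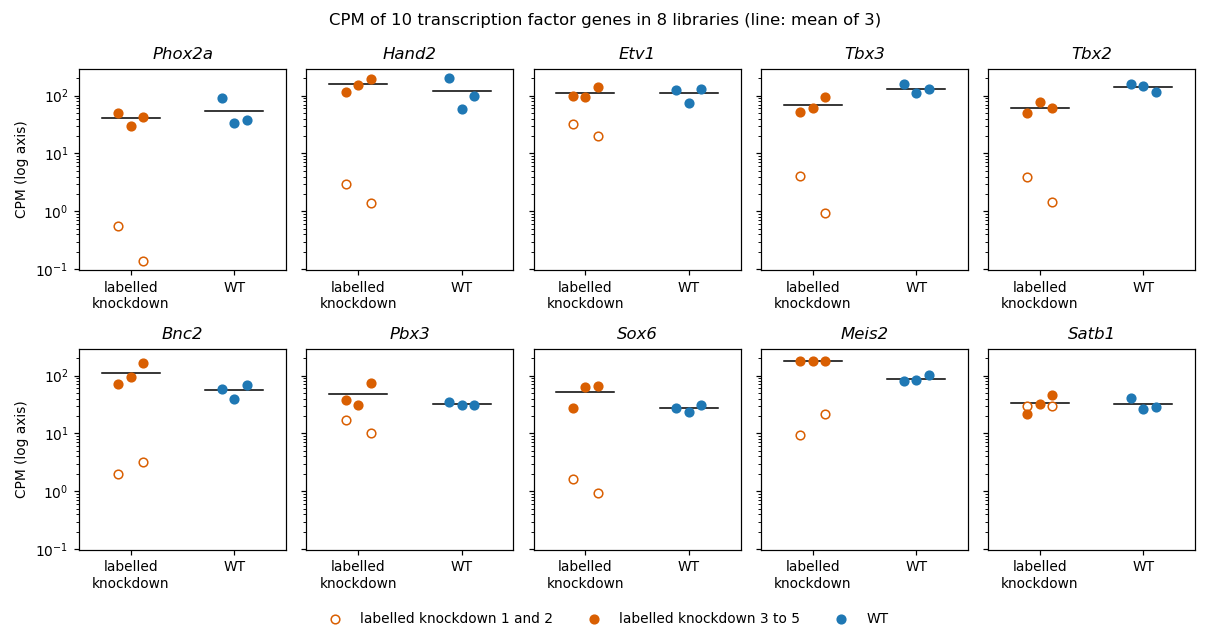
CPM of each factor in 8 libraries (log axis), labelled knockdown on the left and WT on the right of each panel; open circles are the libraries labelled knockdown 1 and 2 and the line is the mean of the 3 filled points. Satb1 is the panel in which the open circles lie among the others; Tbx2 and Tbx3 lie below WT in every library labelled knockdown, and the filled Meis2 points lie above WT.

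Without the libraries labelled knockdown 1 and 2, Tbx2 and Tbx3 fell, Meis2 rose, and the remaining 7 factors did not pass. That is 3 of 10 at an adjusted p under 0.05, against 20.4% of the 15115 genes tested. DESeq2 and voom each called 5 of the 10, against 31.3% and 45.7% of all genes. At an unadjusted p under 0.05 edgeR had 5 of the 10 and 37.5% of all genes. By direction, 2 of 10 factors were lower, against 9.37% of all genes, and 1 of 10 was higher, against 11.1%. The groups did not overlap for 4 of the 10 and for 43.4% of all genes, 2 factors being higher (20.5% of all genes) and 2 lower (22.8%). The median log2 fold change of the 10 factors was 0.21 and that of all genes 0.02. Of all calls, 54.1% were higher in the libraries labelled knockdown, 45.4% without a composition factor and 38.4% when log2(FPKM + 1) was tested instead. FPKM are read counts scaled to both gene length and library size. The number of factors called was 5 without the library labelled knockdown 3, 1 without that labelled knockdown 4 and 0 without WT library 2. Over all genes the calls in these 3 settings were 5982 of 15394, 180 of 15454 and 417 of 15418, so calls over all genes changed as well. They were 1388 of 15533 without WT library 1 and 294 of 15455 without WT library 3.

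Tbx2 and Tbx3 are T-box repressors and close paralogues. In the libraries labelled knockdown 3 to 5, Tbx2 (gene 21385, chr11:85832615-85841948, plus strand of GRCm38.p6) measured 50.04, 76.1 and 60.2 CPM, against 159, 144 and 117 CPM in WT. The highest of the first 3 was well below the lowest WT library. Its log2 fold change was -1.17 ± 0.21 (SE, edgeR adjusted p = 0.0129), which ended as a call without WT library 2 (adjusted p = 0.0545). Tbx3 (gene 21386, chr5:119670534-119684724, plus strand) measured 52.6, 62.2 and 94.3 CPM in those same libraries, against 156, 112 and 128 CPM in WT, again without overlap. It fell by 0.92 ± 0.25 on the log2 scale (edgeR adjusted p = 0.0340). That call did not survive without WT library 1, 2 or 3 (adjusted p = 0.104, 0.0776 and 0.103) or that labelled knockdown 4 (0.132). Their proportion overlapped between the groups, the log2 ratio of Tbx2 to Tbx3 being -0.14 ± 0.47 in the libraries labelled knockdown 3 to 5 and 0.09 ± 0.25 in WT (SD, n = 3 each). The other T-box genes looked at were scarce, Tbx1, Tbx4, Tbx5, Tbx18 and Tbx20 being at most at 1.98 CPM in any library.

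Meis2, a TALE homeodomain protein that forms DNA-binding complexes with Pbx proteins, went the other way. Meis2 (gene 17536, chr2:115861264-116067537, minus strand) measured 179, 174 and 179 CPM in libraries labelled knockdown 3 to 5, against 79.5, 83.8 and 103 CPM in WT. These 3 values differed little from each other, and all lay above WT. Its log2 fold change was 1.00 ± 0.17 (edgeR adjusted p = 0.0104), a call lost without WT library 2 (0.0584) or that labelled knockdown 4 (0.0572). Its ratio to Tbx2 did not overlap either, with a mean log2 ratio of 1.54 ± 0.32 in the libraries labelled knockdown 3 to 5 and -0.66 ± 0.42 in WT (SD, n = 3 each). This pair was chosen after its values were seen, and the exact two-sided permutation p of 0.1 is the smallest that 3 against 3 can give.

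Bnc2 and Sox6 had fold changes close in size to that of Meis2 but did not pass. Bnc2, a zinc finger protein, measured 71.3, 93.0 and 166 CPM in libraries labelled knockdown 3 to 5, against 59.4, 38.7 and 69.2 CPM in WT, so that the groups nearly touched. Its log2 fold change was 0.98 ± 0.33 (edgeR adjusted p = 0.0676, DESeq2 0.0170, voom 0.0307). Sox6, an HMG box factor of the SoxD group, measured 27.4, 63.6 and 65.9 CPM in libraries labelled knockdown 3 to 5, against 27.9, 23.7 and 31.3 CPM in WT. The library labelled knockdown 3 lay among the WT values and the other 2 lay well above them. Its log2 fold change was 0.92 ± 0.32 (edgeR adjusted p = 0.0716, DESeq2 0.0256, voom 0.00294). Without the library labelled knockdown 3, edgeR called both genes (0.0143 for Bnc2 and 0.00173 for Sox6). With any other library left out neither passed, with adjusted p up to 0.206 for Bnc2 and 0.226 for Sox6, and without that labelled knockdown 5 the log2 fold change of Bnc2 was 0.57. Per length the difference in Sox6 was smaller, with 5.55 ± 1.84 FPKM in the libraries labelled knockdown 3 to 5 and 4.44 ± 0.81 FPKM in WT (SD, n = 3 each). None of the 8 deposited counts of Sox6 was a whole number, whereas 71 of the 80 values of the 10 factors were.

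Phox2a, Hand2, Etv1, Pbx3 and Satb1 overlapped between the groups. Phox2a, which acts on Dbh and other noradrenergic genes, measured 50.6, 29.7 and 42.9 CPM in libraries labelled knockdown 3 to 5, against 91.0, 33.98 and 37.8 CPM in WT. WT library 1 stood above the rest, and without it the log2 fold change of -0.40 ± 0.38 (edgeR adjusted p = 0.475) turned to 0.19 (0.668). Hand2, a basic helix-loop-helix factor needed for enteric neuron differentiation in mice, measured 117, 153 and 197 CPM in libraries labelled knockdown 3 to 5. In WT it was at 203, 59.5 and 97.6 CPM, again with WT library 1 highest (log2 fold change 0.38 ± 0.40, edgeR adjusted p = 0.526). Without WT library 1 the value was 0.98 (adjusted p = 0.0813). Etv1, an ETS factor, measured 97.5, 93.5 and 141 CPM in libraries labelled knockdown 3 to 5, against 127, 75.0 and 127 CPM in WT, close to equal (0.02 ± 0.26, edgeR adjusted p = 0.972). Pbx3, a TALE homeodomain partner of Meis and Hox proteins, measured 37.9, 30.6 and 74.8 CPM in libraries labelled knockdown 3 to 5, against 35.2, 31.3 and 30.7 CPM in WT. Here the library labelled knockdown 5 alone was far from WT, and without it the log2 fold change of 0.56 ± 0.32 (edgeR adjusted p = 0.225) became 0.09 (0.780). Satb1 had a log2 fold change of 0.04 ± 0.30 (edgeR adjusted p = 0.928).

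**Figure D3:**
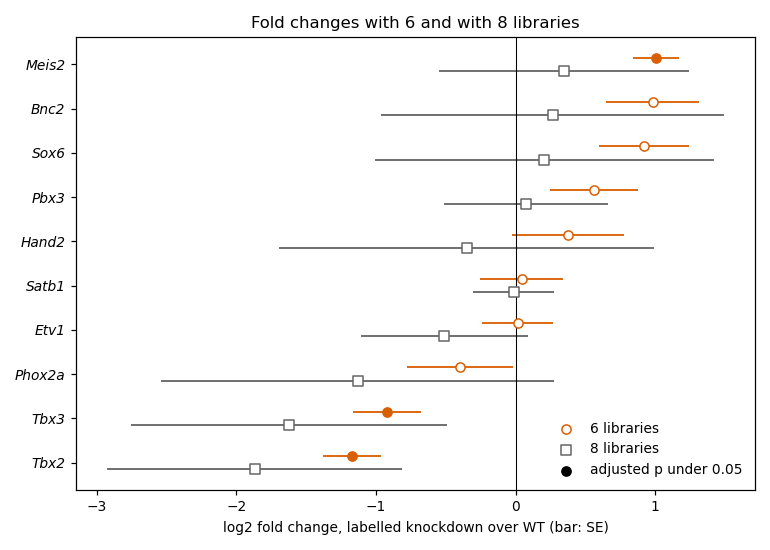
Log2 fold change of labelled knockdown over WT for each factor (bar: SE), with 6 libraries as orange circles and 8 libraries as grey squares; filled symbols have an adjusted p under 0.05. Meis2, Tbx3 and Tbx2 are filled with 6 libraries, no symbol is filled with 8, and the bars of Satb1 barely change.

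The promoter windows of 3 of these genes are shown, from 250 bases before to 50 bases after 1 annotated start, taken from RefSeq for GRCm38.p6. Meis2 is the factor that rose, Sox6 held the most motif matches, and Hand2 shares exonic bases with an antisense gene. They are chr8:57320733-57321032 (plus strand) for Hand2, chr7:116038695-116038994 (minus strand) for Sox6 and chr2:116064570-116064869 (minus strand) for Meis2. Capitals mark matches, on either strand, to 6 motifs: AGGTGTGA (T-box), TGACAG (Meis), CATCTG (an E-box read by Hand proteins), ACAAAG (Sox), CCGGAA (ETS) and TAATTA (homeodomain).
Hand2: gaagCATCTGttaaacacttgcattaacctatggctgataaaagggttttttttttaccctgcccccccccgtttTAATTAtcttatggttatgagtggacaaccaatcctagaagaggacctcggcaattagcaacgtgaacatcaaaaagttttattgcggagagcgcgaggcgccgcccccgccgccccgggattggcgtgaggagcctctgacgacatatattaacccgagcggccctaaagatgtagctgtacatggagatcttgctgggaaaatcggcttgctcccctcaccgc
Sox6: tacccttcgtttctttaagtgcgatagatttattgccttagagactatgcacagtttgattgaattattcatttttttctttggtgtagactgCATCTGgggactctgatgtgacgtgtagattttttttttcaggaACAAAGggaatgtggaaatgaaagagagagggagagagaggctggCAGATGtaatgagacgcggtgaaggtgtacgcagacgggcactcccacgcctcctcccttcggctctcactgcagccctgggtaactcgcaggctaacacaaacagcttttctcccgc
Meis2: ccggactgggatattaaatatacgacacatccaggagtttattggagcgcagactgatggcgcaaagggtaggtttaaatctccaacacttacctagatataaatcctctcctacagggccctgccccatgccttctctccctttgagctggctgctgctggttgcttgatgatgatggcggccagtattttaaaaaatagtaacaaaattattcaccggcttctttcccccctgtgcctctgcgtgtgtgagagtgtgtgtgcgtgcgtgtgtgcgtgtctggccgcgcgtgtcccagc
No motif overlapped another in these 3 windows. The Hand2 window holds CATCTG and TAATTA, that of Sox6 holds CATCTG on both strands and ACAAAG, and that of Meis2 holds none of the 6. Windows were found for 7 of the 10 factors, and the reference used held none for Tbx2, Tbx3 and Pbx3. In the first listed window of each of the 7, CATCTG occurred in 2 (17.2% of 27025 promoters), TAATTA in 2 (5.31%) and ACAAAG in 1 (18.7%). TGACAG (19.3%), CCGGAA (15.2%) and AGGTGTGA (1.27%) occurred in none. A match is a run of letters and not a binding site. The antisense gene Hand2os1 covers 19.6% of the exonic bases of Hand2, and Inppl1 covers 4.67% of those of Phox2a on the opposite strand. Strand is not kept by Smart-seq2, and reads of both genes in such stretches cannot be separated.

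Levels of different genes can be compared only per length. By mean FPKM, Hand2 stood first both in the libraries labelled knockdown 3 to 5 (81.4 ± 21.1) and in WT (65.9 ± 38.6, SD, n = 3 each). Its range overlapped that of the next gene in both groups. In the library labelled knockdown 3 Hand2 was at 62.5 and Meis2 at 62.8 FPKM, and in WT library 2 Hand2 was at 34.3 and Tbx2 at 49.9 FPKM. Meis2 had rank 2 in those labelled knockdown 3 to 5 with 61.3 ± 2.87 FPKM and had rank 4 in WT with 32.6 ± 4.39 FPKM. In WT the order after Hand2 was Tbx2 (46.9), Phox2a (43.3), Meis2, Tbx3 (32.4) and Etv1 (30.8), and neighbours in this order overlapped in their ranges. Below them Pbx3 (14.2), Satb1 (9.32) and Bnc2 (5.05) were each separated from the gene above, while Sox6 (4.44) overlapped Bnc2. In the libraries labelled knockdown 3 to 5, Tbx2 and Tbx3 had ranks 6 and 7 at 19.6 ± 3.66 and 16.5 ± 5.43 FPKM. The highest and the lowest of the 10 by mean in WT, Hand2 and Sox6, were above 90.7% and 48.1% of all genes in the table.

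Several paralogues of the factors had fold changes of the opposite sign in the 6 libraries. Of the factors in such pairs Meis2 passed, while Bnc2, Sox6, Pbx3 and Etv1 did not, and Etv1 was near 0 (0.02). No share of opposite signs was computed for other gene pairs. Of 18 tested genes of a list of family partners, 6 fell, 3 rose and 9 did not pass in the 6 libraries, against 9.37% and 11.1% of all genes, with a median log2 fold change of -0.23. With all 8 libraries 0 of the 18 passed in edgeR (3 at an unadjusted p under 0.05), and 3 passed with DESeq2 and 3 with voom. In the 6 libraries Etv4 and Etv5, ETS factors induced by receptor tyrosine kinase signalling, fell by 1.22 ± 0.22 and 0.76 ± 0.21 on the log2 scale. Etv5 was highest in the libraries labelled knockdown 1 and 2, at 162 and 139 CPM. With all 8 libraries its log2 fold change was 0.67 (edgeR adjusted p = 0.675). Sox5 and Sox13, the other SoxD genes, fell by 0.92 ± 0.23 and 1.05 ± 0.24 in the 6 libraries. Meis3, which is needed for gut colonisation in zebrafish, fell there by 0.73 ± 0.16. Meis1 had a log2 fold change of -0.10 ± 0.16 without passing, and this value was above 0 on both FPKM scales. Pbx2 rose by 1.64 ± 0.33 on the log2 scale and Hand1 by 0.90 ± 0.26, a call of Hand1 that ended without a composition factor (adjusted p = 0.0586). Bnc1 did not pass (log2 fold change -0.88 ± 0.28, edgeR adjusted p = 0.0559). None passed without WT library 3 or the library labelled knockdown 4, just 1 without WT library 2, and 4 without WT library 1.

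**Figure D4:**
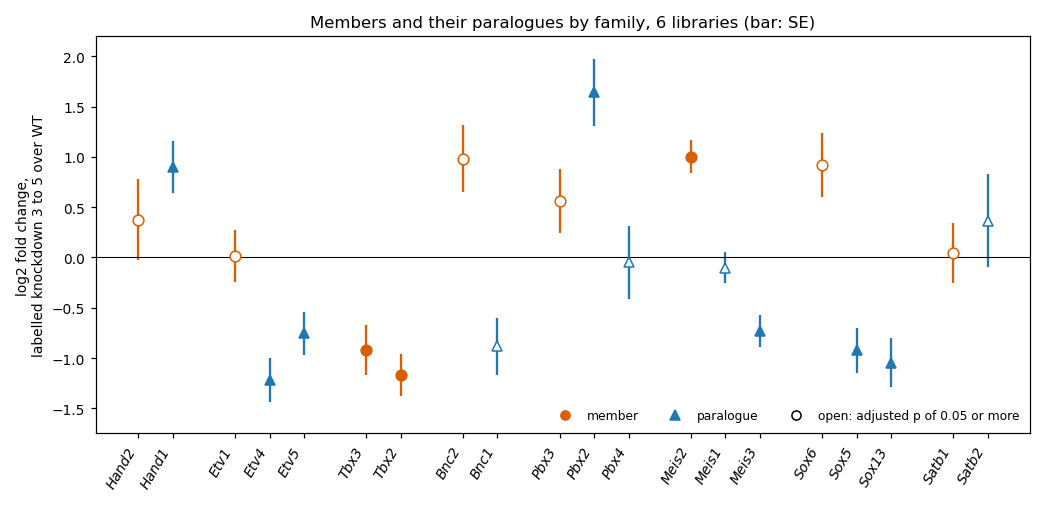
Log2 fold change of the libraries labelled knockdown 3 to 5 over WT for 9 of the factors (orange circles) and paralogues of 7 of them (blue triangles), grouped by family; bars are SE and open symbols did not pass an adjusted p of 0.05. Bnc, Sox and Meis genes lie on both sides of 0, while both T-box genes lie below it.

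The proportion of a factor to its paralogue was computed within each library, where scaling cancels, for 13 pairs. The ratio was higher in each of the libraries labelled knockdown 3 to 5 than in any WT library for 6 pairs, lower for 1 and overlapping for 6. Of single genes, 43.4% did not overlap in the same libraries, and no share was computed for other gene pairs, so the 7 of 13 are a description. Sox6 over Sox5 had a mean log2 ratio of 0.77 ± 0.37 in the libraries labelled knockdown 3 to 5 and -1.001 ± 0.26 in WT (SD, n = 3 each), a change in which of the 2 genes had more counts. Sox6 over Sox13, Bnc2 over Bnc1, Meis2 over Meis3, Etv1 over Etv4 and Meis2 over Meis1 differed by 1.91, 1.83, 1.75, 1.27 and 1.11 on the log2 scale in the same direction. Pbx3 over Pbx2 was lower by 1.19 on the log2 scale, with -0.90 ± 0.58 in the libraries labelled knockdown 3 to 5 and 0.29 ± 0.43 in WT. For each of the 7 pairs without overlap the exact two-sided permutation p was 0.1, the smallest possible, and 0.186 adjusted over the 13 pairs.

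Among 24 tested genes of a list of other enteric neuron and progenitor factors, 5 fell, 2 rose and 17 did not pass in the 6 libraries, against 9.37% of all genes lower and 11.1% higher. The median log2 fold change was 0.09 and that of all genes 0.02. Among those that fell were Sox10 (-1.90 ± 0.16), Tlx2 (-1.92 ± 0.21), Sox2 (-1.08 ± 0.20) and Hes6 (-1.15 ± 0.22). Those that rose were Nfia (1.80 ± 0.37), a factor of glial and many other cells, and Hand1. The counts higher and lower were 0 and 2 without WT library 3 or that labelled knockdown 4, 0 and 4 without WT library 2, 0 and 5 without WT library 1 and 5 of each without that labelled knockdown 3. Of 9 tested genes of a list of transmitter genes with Ret, some of which Phox2a and Hand2 act on, 3 fell, none rose and 6 did not pass. Dbh, which makes noradrenaline, measured 19.6, 1.78 and 18.4 CPM in libraries labelled knockdown 3 to 5, against 85.2, 63.4 and 42.0 CPM in WT (log2 fold change -2.25 ± 0.69, edgeR adjusted p = 0.0492). That call ended when any 1 of the 6 libraries was left out (edgeR adjusted p from 0.0564 to 0.129) and without a filter on low counts (0.103). Ret and the galanin gene Gal were the others that fell, by 1.23 ± 0.21 and 1.64 ± 0.43 on the log2 scale. The call of Gal ended with voom (adjusted p = 0.0629), without the library labelled knockdown 4 (0.118) or 5 (0.0887), and without WT library 1 (0.0912, log2 fold change -1.07) or 3 (0.0847). Ret did not pass once the library labelled knockdown 4 was left out (0.0663). Without the library labelled knockdown 4 none of the 9 passed, and without WT library 1 or 3 there was 1.

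Cell type markers also differed between the groups, and their part in these results was not tested. In the 6 libraries 11.1% of all genes tested rose and 9.37% fell in edgeR. Of 16 mesenchyme genes 11 rose and none fell, and their sum was 6283 to 6734 CPM in libraries labelled knockdown 3 to 5, against 3357 to 4613 CPM in WT. Of 5 genes of interstitial cells of Cajal 3 rose, with sums of 169 to 218 CPM in libraries labelled knockdown 3 to 5, against 94.6 to 137 CPM in WT. Kit (67.8 to 98.997 against 27.1 to 43.7 CPM), Kcnk3 (50.8 to 78.4 against 27.3 to 35.4 CPM) and Hcn4 lay above WT. Ano1 overlapped, at 25.96 to 31.3 CPM against 26.1 to 49.3 CPM in WT, and so did Gpr20. Kit was also at 43.5 and 127 CPM in the leukocyte-rich libraries labelled knockdown 1 and 2. Whether interstitial cells were more numerous was not tested. Of 16 leukocyte genes 12 rose. Of 12 progenitor genes 10 fell and none rose, with sums of 1052 to 1179 CPM in libraries labelled knockdown 3 to 5, against 3157 to 3167 CPM in WT. Of 12 pan-neuronal genes 4 fell (Tubb3, Nefm, Gap43 and Elavl4) and none rose. Of 10 endothelial genes 9 fell and of 6 mesothelial genes 2. Smooth muscle genes had 1 of 8 higher, and epithelial and lymphoid genes had 0 of 8 and 0 of 4 passing in edgeR. Of the lymphoid genes Rag1 was at 0 in all of the libraries labelled knockdown 3 to 5 and Cd3e in all of WT. No marker of neurons, progenitors, mesenchyme or leukocytes was at 0 throughout WT or throughout the libraries labelled knockdown 3 to 5. Leaving out the library labelled knockdown 4 left 180 calls among all 15454 genes tested. Among the markers it left 1 mesenchyme, 6 progenitor, 8 leukocyte and 4 endothelial genes. No pan-neuronal, interstitial cell, mesothelial or smooth muscle gene was left. Leaving out WT library 1, 2 or 3 left 1388, 417 and 294 calls among all genes. It left 7, 2 and 4 mesenchyme genes, 3, 1 and 2 pan-neuronal genes and 1, 0 and 1 genes of interstitial cells. More was kept in other lists, with 9, 9 and 7 progenitor, 11, 11 and 9 leukocyte and 7, 6 and 4 endothelial genes.

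Set against the summed pan-neuronal genes of the same library, 6 factors were proportionally higher in each of the libraries labelled knockdown 3 to 5 than in any WT library. The same held for 49.8% of all genes tested, a share close to 6 of 10, and 1.22% of genes were lower without overlap; the neuronal sum itself was lower in these libraries. The 6 factors were Meis2, Bnc2, Sox6, Hand2, Pbx3 and Etv1, with differences in mean log2 ratio of 1.86, 1.78, 1.67, 1.38, 1.31 and 0.88. Tbx2 and Tbx3 overlapped, with differences of -0.33 and -0.10 that were smaller than their SD in the libraries labelled knockdown 3 to 5 (0.76 and 0.47). Phox2a differed by 0.57 and Satb1 by 0.85, both overlapping. The mesenchyme sum was higher in these libraries, and relative to it 53.5% of all genes were lower without overlap and 2.23% higher. Among the factors 4 were lower, a share no larger than that of all genes. Tbx2, Tbx3, Phox2a and Etv1 differed by -1.97, -1.74, -1.07 and -0.76 in mean log2 ratio. Bnc2, Sox6, Hand2, Pbx3 and Satb1 overlapped, and Meis2 was higher by 0.22, amounting to 2.66% to 2.78% of the mesenchyme sum in libraries labelled knockdown 3 to 5, against 2.23% to 2.41% in WT. The exact two-sided permutation p of each ratio without overlap was 0.1, the smallest that 3 against 3 allows.

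**Figure D5:**
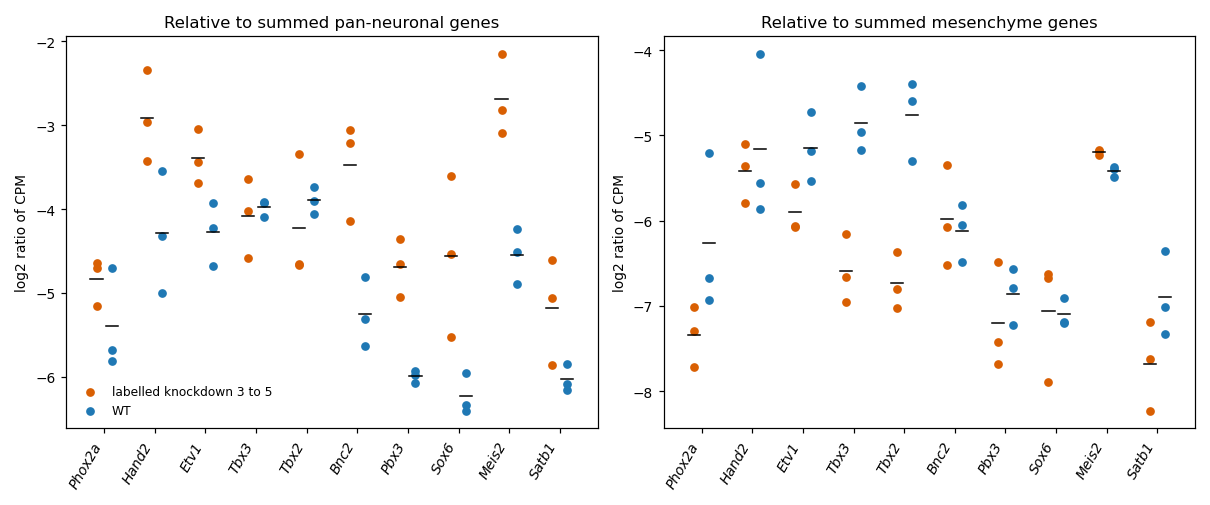
Log2 ratio of the CPM of each factor to the summed CPM of 12 pan-neuronal genes (left) and 16 mesenchyme genes (right) in the same library, with the libraries labelled knockdown 3 to 5 in orange left of WT in blue; the line is the mean of 3 libraries. Tbx2 and Tbx3 overlap on the left and separate on the right, while Bnc2 and Sox6 separate on the left and overlap on the right.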

How the data were processed

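Per the labels' protocols, about 200 sorted cells per tube were lysed, Smart-seq2 cDNA was prepared, and transposon libraries were sequenced as DNA nanoballs. Named in the submitters' processing notes are GRCm38.p6 as genome build and the tools Bowtie2 and HISAT. The counting tool and annotation are not given in the sources used here. The authors deposited expected counts per gene, of which 17.6% to 19.8% per library were not whole. FPKM and TPM were scaled by the authors, per the file headers, TPM to a total of 1000000. The deposited normalised counts, a signal, were the rounded-up count times 1 factor per library in 100% of genes. TPM, these normalised counts and 8 columns of group means served only for checks of units or were not used. No 2 libraries agreed within sampling noise (smallest chi-square per degree of freedom 30.6).

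Expected counts were rounded, filtered with filterByExpr and scaled with TMM. Two-sided tests were robust quasi-likelihood tests in edgeR 4.0.16 (R 4.3.3), with Benjamini-Hochberg adjustment over all genes and a threshold of 0.05, in 8 and in 6 libraries. The 6 library comparison, the 10 members and the gene lists were chosen with earlier results of these data known. Printed CPM use the scaling of all 8 libraries. Lists are described by counts and medians without a set test, and some genes, such as Hand1, Sox10 and Ret, are in more than 1 list. All 10 members were named, their paralogues, and from other lists up to 4 genes with the smallest p in the 6 library comparison, except that a few genes counted in the lists are not reported here; further genes were named where a count was small. Ratios used CPM, with 0.1 CPM added for those to summed lists, and the choice of pairs within families followed the values. Alternatives were DESeq2 1.42.0, limma 3.58.1 (voom with quality weights, and log2 FPKM with 1 or 0.1 added), other scalings and filters, a replicate block and each library left out. Genes were matched to RefSeq and GENCODE vM21 annotation of the same build. On data simulated for 6 libraries and 14897 genes, edgeR recovered 7 of 70 genes with a 2-fold change, 58 of 70 with a 4-fold and 59 of 60 with a 32-fold change, with 8 of 132 calls false. For 8 libraries and 15063 genes it recovered 0 of 70, 13 of 70 and 42 of 60, with 1 of 56 calls false. Further work used scipy 1.17.1, numpy 2.4.6, pandas 2.3.3 and matplotlib 3.10.9 under Python 3.11.15.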

Additional observations from a re-analysis of the deposited data

How the results depend on the processing

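In the 6 libraries, the calls of Tbx2, Tbx3 and Meis2 held in all 8 alternatives other than leaving out a library, with log2 fold changes from -1.26 to -0.92, -1.01 to -0.92 and 0.90 to 1.01. With each library left out in turn the number of factors called ranged from 0 to 5, and the number of genes called from 180 to 5982, against 3 and 3090. DESeq2 and voom both called 5 factors, and voom called 6900 genes. In the 8 libraries no alternative called a factor; 2220 genes were called with DESeq2, 3692 with voom and 0 to 2 with a library left out, against 0. Effects of 2-fold were rarely recovered at this depth and number of libraries in simulation, so a factor that did not pass is not shown to be equal. The simulation changed far fewer genes than were called in the 6 libraries. Its adjusted threshold was therefore stricter, and its recovery can be lower than in the 6 libraries themselves. The simulation also drew each gene independently, with 1 mean per group. It held no shift shared by the libraries labelled knockdown 1 and 2, so its rates for 8 libraries need not hold for the real ones.

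Values near 0 changed sign. In the 6 libraries Etv1 was at -0.11 with voom, -0.054 without a composition factor, -0.33 on log2(FPKM + 1) and -0.34 on log2(FPKM + 0.1). Satb1 was at -0.028, -0.20 and -0.22 in the last 3 of these. With a library left out, Phox2a ranged from -0.65 to 0.19, Etv1 from -0.20 to 0.13 and Satb1 from -0.26 to 0.26. In the 8 libraries voom gave 0.15 for Hand2 and 0.031 for Satb1, and the scaling without a composition factor gave -0.059 for Pbx3. On log2(FPKM + 1) and log2(FPKM + 0.1), Bnc2 was at -0.49 and -1.19, Pbx3 at -0.40 and -0.47, Sox6 at -0.79 and -1.74 and Meis2 at -0.62 and -0.73. With a library left out, the 8 library ranges that crossed 0 were -0.80 to 0.26 for Hand2, -0.17 to 0.20 for Satb1, -0.23 to 0.52 for Sox6, -0.38 to 0.58 for Bnc2 and -0.42 to 0.31 for Pbx3. The cause was not tested. The median log2 fold change of all genes in the 8 libraries was 0.07, and -0.17 without a composition factor, -0.21 on log2(FPKM + 1) and -0.35 on log2(FPKM + 0.1). In the 6 libraries it was 0.02, and -0.10 on log2(FPKM + 0.1).

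Same-numbered libraries deviated from their group means with correlations of -0.03, 0.04 and -0.04 across genes. The knockdown mean included the libraries labelled knockdown 1 and 2, which stood apart. These correlations therefore cannot decide whether the replicate numbers pair the libraries. With the replicate number as a block the 8 libraries gave 0 calls, as without it, and log2 fold changes of -2.93 for Bnc2, -0.80 for Pbx3, -3.11 for Sox6 and -1.47 for Meis2; there the difference rests on numbers 1 to 3, so on the libraries labelled knockdown 1 and 2 for 2 of its 3 pairs. For the 6 libraries no paired analysis was possible because the groups share 1 replicate number.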

Other observations

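Over all 8 libraries, the genes whose profile was most like that of each factor were found by the root mean square difference of centred log2 CPM among 12737 genes with a mean log2 CPM of at least 1. Much of each profile is the drop in the libraries labelled knockdown 1 and 2, so likeness is partly a shared size of that drop. Satb1 had the closest neighbour, Fam214a, at a difference of 0.12 on the log2 scale. Bnc2 was closest to Notch3 (0.16), Col11a1 (0.20) and Camk2n1 (0.22). Meis2 was closest to Synpo (0.17), Alcam (0.19) and Col23a1 (0.20). Etv1 was closest to Srd5a1 (0.17), Tbx3 to Col2a1 (0.19), Pbx3 to Ppp2r3a (0.21), Tbx2 to Mycn (0.24) and Sox6 to Pde5a (0.26). Hand2 was closest to Apc2 (0.32), Lama1 and Srrm3 (both 0.37). Phox2a was the factor with the least close neighbours, Soga3 and Scg3 (both 0.38) and Chodl (0.39). For none of the 10 factors was another of the 10 among its 3 nearest genes.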
